A study of Mus musculus with 6 samples.

Results

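The 9 genes of the STAT and IRF transcription factor families were followed in macrophages grown from mouse bone marrow cells: Stat2, Stat3, Irf1, Irf3, Irf4, Irf5, Irf7, Irf8 and Irf9. They were chosen by gene symbol, as factors of interferon signalling and of myeloid identity, with earlier results of these data known. Each matched 1 of the 55487 gene rows of the deposited count table. The series holds 6 RNA-seq libraries in 2 groups of 3. TpMo-derived macrophages came from sorted bone marrow cells that the labels call TpMos, and Ly6Chi-derived macrophages from sorted mature Ly6Chi monocytes. Both groups were kept for 7 days in RPMI medium with serum and CSF-1, the growth factor of the macrophage lineage, and then scraped off for RNA. No further treatment, genotype, strain or age is given in the sources used here, nor is the CSF-1 concentration of each culture. The question put to these genes is whether macrophages of the 2 origins differ in them.

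STAT proteins wait in the cytoplasm until Janus kinases at a cytokine receptor phosphorylate them, and then pair and enter the nucleus. Under type I interferon, STAT2 and IRF9 act in the complex ISGF3, which binds the interferon-stimulated response element (ISRE), whereas interferon gamma acts on the gamma-activated site (GAS), and STAT3 serves receptors of the interleukin-6 and interleukin-10 families. IRF3, IRF5 and IRF7 are switched on below sensors of nucleic acids and microbial products and drive interferon and cytokine genes, IRF1 is induced by interferon, and IRF8 and IRF4 are lineage factors of myeloid and lymphoid cells that bind with partners such as PU.1.

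The sequences before 4 of these genes are shown first, because the 2 response elements are the sites through which interferon reaches such genes. Promoter windows from RefSeq on GRCm38.p6 ran from 250 bases before to 50 bases after each annotated start, and 12 windows matched the 9 genes. They were searched on both strands for the ISRE core (GAAA, any 2 bases, GAAA) and for the GAS letters TTCNNNGAA, which read the same on either strand. The ISRE core was in 1 of the 12 windows, that of Stat2, where it reads TTTCAGTTTC on the gene's strand and begins 222 bases before the start. The GAS letters were in 2, the windows of Irf1 (TTCCCCGAA, 90 bases before the start) and of Irf8 (TTCTCGGAA and TTCAGAGAA, 171 and 153 bases before). Among all 32851 windows of the table, 3.44% held the ISRE core and 8.30% the GAS letters. Of the other family genes read below, Stat4 held the ISRE core in 1 of its 2 windows (GAAAGTGAAA, 97 bases before the start). Irf2 held it too (GAAAATGAAA, 241 bases before), with the GAS letters 224 bases before. Neither Stat4 nor Irf2 passed the threshold given below. The stretches printed here run 5′ to 3′ on the gene's strand, with matches in capitals. Stat2 and Irf8 are shown for their matches and their rise, Irf1 for its match, and Irf7 because its transcript rose most and its window holds neither exact motif. They lie at chr10:128270248-128270497 (plus strand) for Stat2, chr8:120736108-120736357 (plus) for Irf8, chr11:53769764-53770013 (plus) for Irf1 and chr7:141266482-141266674 (minus) for Irf7, whose printed stretch stops short of the RefSeq start by the 57 bases that the counting annotation places in an exon.
Stat2: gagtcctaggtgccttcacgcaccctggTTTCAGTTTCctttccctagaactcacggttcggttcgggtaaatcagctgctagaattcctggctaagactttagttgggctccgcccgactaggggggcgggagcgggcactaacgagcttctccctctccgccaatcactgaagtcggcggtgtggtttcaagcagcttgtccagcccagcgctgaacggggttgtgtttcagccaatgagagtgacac
Irf8: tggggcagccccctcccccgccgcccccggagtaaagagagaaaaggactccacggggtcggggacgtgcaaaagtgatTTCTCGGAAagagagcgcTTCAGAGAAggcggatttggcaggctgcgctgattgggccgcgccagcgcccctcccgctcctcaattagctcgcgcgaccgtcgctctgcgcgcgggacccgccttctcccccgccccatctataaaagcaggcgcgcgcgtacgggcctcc
Irf1: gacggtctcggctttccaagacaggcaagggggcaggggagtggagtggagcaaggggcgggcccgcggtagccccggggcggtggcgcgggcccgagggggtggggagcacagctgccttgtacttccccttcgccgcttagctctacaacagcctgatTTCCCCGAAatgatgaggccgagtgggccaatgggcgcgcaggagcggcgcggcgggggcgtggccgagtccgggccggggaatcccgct
Irf7: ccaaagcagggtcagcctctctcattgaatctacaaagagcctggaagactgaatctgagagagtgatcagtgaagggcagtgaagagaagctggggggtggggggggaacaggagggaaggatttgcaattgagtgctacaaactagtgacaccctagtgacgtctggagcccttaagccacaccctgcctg
A match describes letters only and says nothing on binding, and a window without a match says nothing on the factor.

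Total counts ran from 23765773 to 33042094 per library, so that a floor of 3 counts lies at 0.0908 to 0.126 CPM, the counts scaled to the library total. The marker genes of macrophages were measured in every library, with a summed level of 36176 to 38515 CPM in TpMo-derived and 29341 to 32371 CPM in Ly6Chi-derived libraries over the 10 genes listed. Markers of dendritic cells bear on Irf7, Irf8 and Irf4. Of 10 conventional dendritic cell genes, Flt3, Clec9a, Cd209a and Ccr7 had 0 counts everywhere, and the list summed to 78.0 to 82.0 against 68.0 to 92.4 CPM, nearly all of it Wdfy4. Of 10 plasmacytoid dendritic cell genes, 6 had 0 counts, Siglech among them, and the list summed to 429 to 490 CPM in TpMo-derived and 505 to 547 CPM in Ly6Chi-derived libraries. Lair1, at 404 against 478 CPM, made up most of that sum and set its direction, while Tcf4 stood at 58.4 against 47.9 CPM. Neither list had a member past the threshold. The genes of neutrophils summed to 1.10 to 2.75 against 0.218 to 1.49 CPM, those of B cells to 5.27 to 19.2 against 5.05 to 11.2 CPM, those of T and NK cells to 0 to 3.38 against 0.311 to 4.14 CPM, and those of mast cells and basophils to 2.43 to 4.97 against 1.76 to 4.65 CPM.

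Of the 9 genes, 5 rose in TpMo-derived macrophages and none fell. Irf7 rose most, followed by the ISGF3 genes Stat2 and Irf9, while Irf5 and Irf8 rose by less than 1.3-fold. Stat3 stood at nearly the same level in both groups, Irf1 and Irf3 did not pass, and Irf4 was too low to test. Each gene was tested with edgeR's quasi-likelihood test over 13140 genes, with Benjamini-Hochberg adjustment and a threshold of 0.05. At that threshold 12.3% of all genes tested were called, of which 859 were higher and 761 lower. In all, 6.54% of all genes tested were higher and 5.79% lower in TpMo-derived macrophages, against 5 of the 8 STAT and IRF genes that could be tested higher and 0 lower. Because the 9 genes were picked with earlier results of these data known, this contrast describes them and is not a test of the families. Of 5 other STAT and IRF genes, read below, 0 passed. The median log2 fold change was 0.36 over the 8 tested genes of the 9 and 0.01 over all genes tested, a positive value being higher in TpMo-derived macrophages. Levels did not overlap between groups for 6 of the 8, always with TpMo-derived macrophages higher, as for 15.3% of all genes tested. These are bulk libraries, in which fewer cells with a transcript and less of it per cell cannot be told apart.

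**Figure D1:**
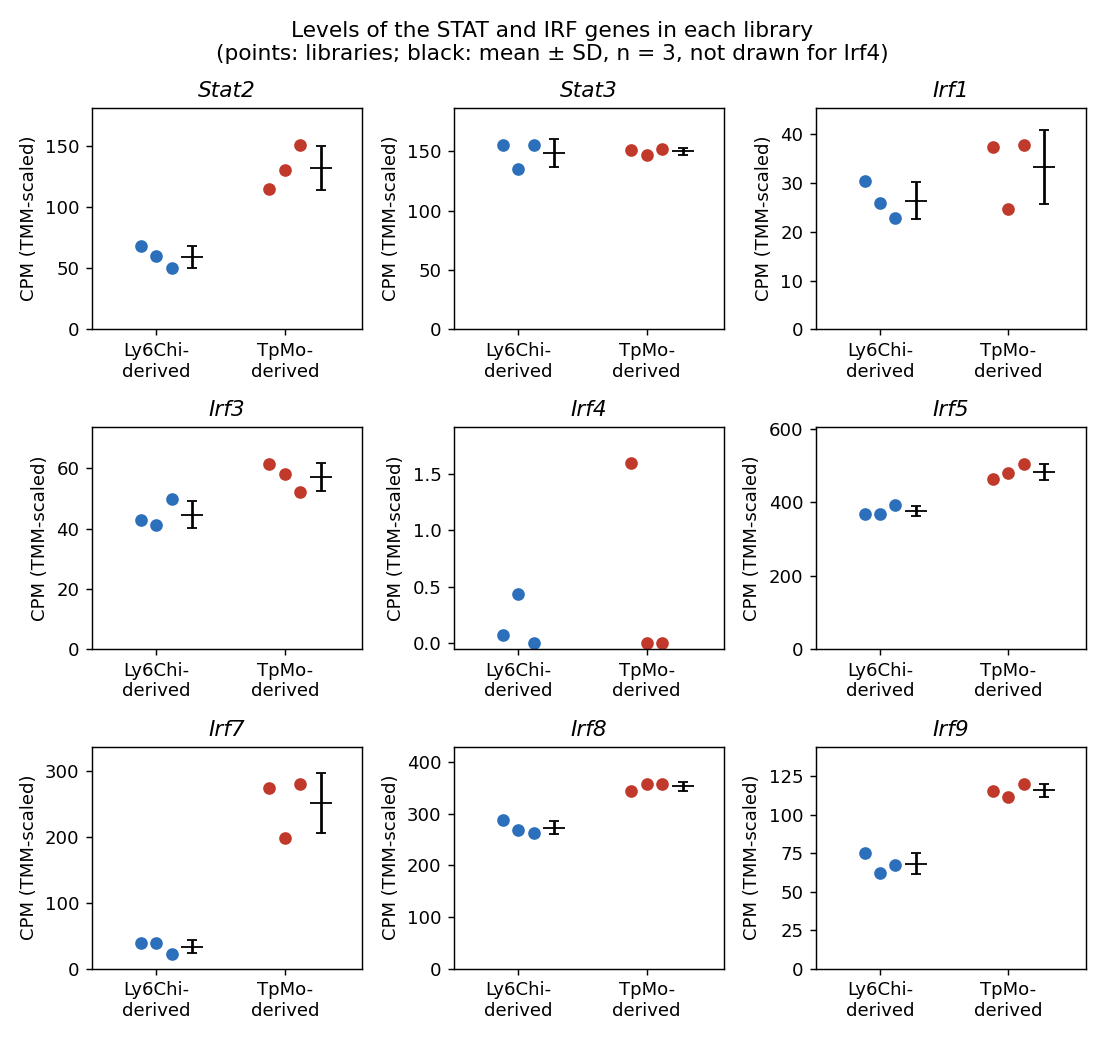
CPM scaled by TMM (y axis, a linear scale in each panel) of the 9 genes in the 3 Ly6Chi-derived (blue) and 3 TpMo-derived (red) libraries, with mean ± SD in black except for Irf4. The TpMo-derived points lie above all Ly6Chi-derived points for Stat2, Irf3, Irf5, Irf7, Irf8 and Irf9, and the groups overlap for Stat3, Irf1 and Irf4.

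The ISGF3 genes were higher in every TpMo-derived library. Stat2 (ENSMUSG00000040033.16, chromosome 10, 128270559 to 128292849 on GRCm38, plus strand), which encodes the interferon-specific STAT of the complex, stood at 115, 130.1 and 151 CPM in the TpMo-derived and at 68.1, 60.2 and 49.8 CPM in the Ly6Chi-derived libraries. The lowest TpMo-derived library was thus well above the highest Ly6Chi-derived one. The means were 132 ± 18.4 against 59.4 ± 9.15 CPM (SD, n = 3 each), a 2.22-fold rise (log2 fold change 1.15 ± 0.14 SE, edgeR adjusted p = 5.79e-04). Irf9 (ENSMUSG00000002325.15, chromosome 14, 55603571 to 55610030, plus strand), the DNA-binding subunit of ISGF3, stood at 116, 111 and 120.0 CPM against 75.2, 61.9 and 67.2 CPM. Its libraries also fell into separate ranges, with a narrower spread than those of Stat2. The rise was 1.70-fold, with a log2 fold change of 0.76 ± 0.10 (SE, edgeR adjusted p = 0.00102). Of the exon bases of Irf9, 2.28% are shared with Rnf31, a ubiquitin ligase gene on the same strand whose level was 40.2 against 32.6 CPM (adjusted p = 0.316), and reads there were not counted for either gene.

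Among the factors that induce interferon genes, Irf7 stood apart. Irf7 (ENSMUSG00000025498.15, chromosome 7, 141262706 to 141266481, minus strand) encodes the factor that is itself interferon-induced and amplifies interferon production. It stood at 274, 199 and 281 CPM in the TpMo-derived and at 39.0, 39.6 and 21.9 CPM in the Ly6Chi-derived libraries. TpMo-derived replicate 2 was the lowest of its group and Ly6Chi-derived replicate 3 the lowest of all 6, and the gap between the groups was larger than the spread within either. The means of 251 ± 45.5 and 33.5 ± 10.1 CPM (SD, n = 3 each) differed 7.51-fold (log2 fold change 2.91 ± 0.22 SE, 95% interval 2.41 to 3.41, edgeR adjusted p = 3.38e-05), the 98th largest increase among the 13140 genes. Phrf1, on the opposite strand, shares 1.19% of the Irf7 exon bases and stood at 78.4 against 73.8 CPM (adjusted p = 0.775).

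Irf3 and Irf5 differed far less. Irf3 (ENSMUSG00000003184.15, chromosome 7, 44997648 to 45002848, plus strand), the factor present before any stimulus that starts interferon beta transcription, stood at 61.4, 58.0 and 52.0 CPM against 42.9, 41.3 and 49.8 CPM. The ranges of the groups were separate but only narrowly so. Its log2 fold change of 0.35 ± 0.13 (SE, 95% interval 0.06 to 0.65) gave an unadjusted p of 0.0220 and missed the threshold after adjustment in edgeR (adjusted p = 0.120). Irf5 (ENSMUSG00000029771.12, chromosome 6, 29526625 to 29541871, plus strand), which acts below Toll-like receptors on inflammatory cytokine genes, stood at 463, 481 and 504 CPM against 368, 369 and 394 CPM. Although the step was small, the libraries of each group lay close together, and the log2 fold change of 0.36 ± 0.06 (SE) passed (edgeR adjusted p = 0.00494). Of the Irf5 exon bases, 14.1% are shared with Tnpo3 on the opposite strand, at 102 against 110.0 CPM (adjusted p = 0.729). Irf3 and Irf5 had nearly equal fold changes of 1.28-fold each, and differed in the spread between libraries.

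Irf1 (ENSMUSG00000018899.16, chromosome 11, 53770014 to 53778374, plus strand), a factor induced by interferon gamma through the GAS of its promoter, stood at 37.4, 24.6 and 37.9 CPM in TpMo-derived and at 30.4, 25.9 and 22.8 CPM in Ly6Chi-derived libraries. TpMo-derived replicate 2, also the lowest of its group for Irf7, lay within the Ly6Chi-derived range. The log2 fold change of 0.34 ± 0.20 (SE) did not pass (edgeR adjusted p = 0.367), and its 95% interval of -0.11 to 0.79 leaves room for no change and for a rise of over 1.5-fold. The antisense gene Gm17334 covers 20.0% of the Irf1 exon bases, where reads were lost to both, and itself stood at 2.57 against 1.34 CPM (adjusted p = 0.449).

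The lineage factors Irf8 and Irf4 were at opposite ends of the range. Irf8 (ENSMUSG00000041515.10, chromosome 8, 120736358 to 120756694, plus strand), needed for monocyte and dendritic cell development, stood at 343, 358 and 357 CPM in TpMo-derived and at 287, 269 and 262 CPM in Ly6Chi-derived libraries. The groups were clearly separate and tight. The means of 353 ± 8.03 and 273 ± 13.0 CPM (SD, n = 3 each) gave a log2 fold change of 0.37 ± 0.07 (SE, edgeR adjusted p = 0.00502). Irf4 (ENSMUSG00000021356.10, chromosome 13, 30749226 to 30766976, plus strand), known from alternatively activated macrophages, dendritic cells and plasma cells, had 52, 0 and 0 counts in TpMo-derived and 2, 12 and 0 counts in Ly6Chi-derived libraries. Thus 1 TpMo-derived library held 52 of all 66 counts, and the gene failed the count filter. No difference was detectable at this depth. In that library, TpMo-derived replicate 1, the B cell genes summed to 19.2 CPM, the highest of the 6 libraries, against 5.27 and 14.5 CPM in the other TpMo-derived libraries, and Cd22 and Cd79b made up that sum while Pax5 and Cd79a had 0 counts. The T and NK cell sum there, all of it Lck, was 3.38 CPM against 0.483 and 0 CPM, and it was highest in Ly6Chi-derived replicate 2, at 4.14 CPM, the library with 12 Irf4 counts. The part of such cells in the Irf4 counts was not tested.

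Stat3 (ENSMUSG00000004040.16, chromosome 11, 100885098 to 100939540, minus strand), the STAT of interleukin-6 and interleukin-10 signalling, stood at 151, 147 and 152 CPM in TpMo-derived and at 156, 135 and 155 CPM in Ly6Chi-derived libraries. All TpMo-derived values fell inside the Ly6Chi-derived range. The log2 fold change was 0.01 ± 0.09 (SE, edgeR adjusted p = 0.954), with a 95% interval of -0.18 to 0.20. The interval does not include a change of the size seen for Stat2 or Irf9.

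**Figure D2:**
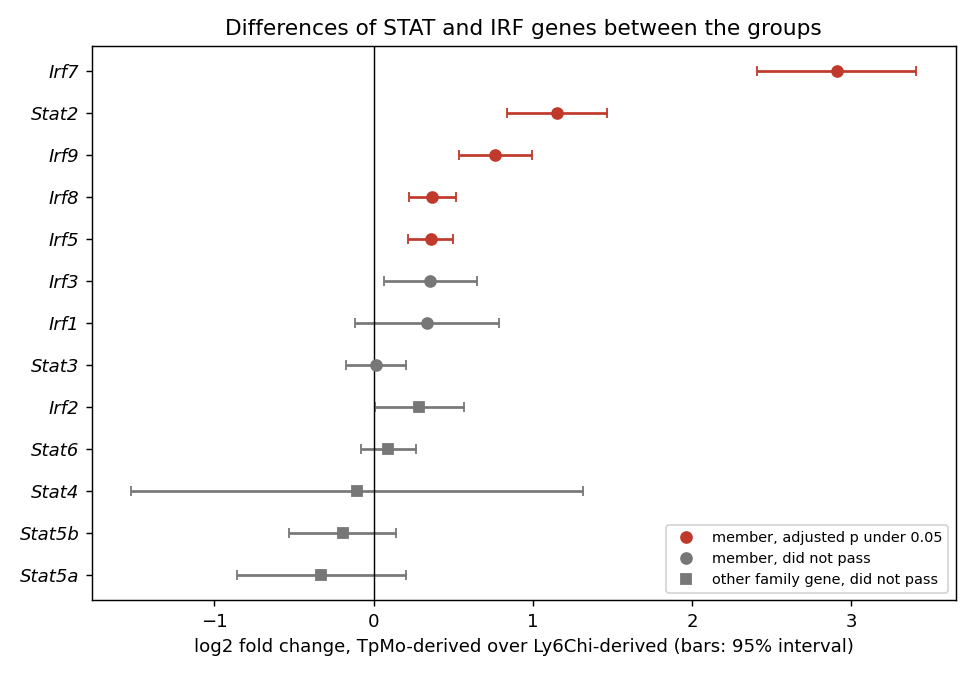
Log2 fold change (x axis, TpMo-derived over Ly6Chi-derived) with 95% interval for the 8 tested genes of the 9 (circles) and 5 other STAT and IRF genes (squares), red where the edgeR adjusted p is under 0.05. Irf7 lies farthest to the right at 2.91, and the interval of Stat3 spans 0.

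Stat4, Stat5a, Stat5b, Stat6 and Irf2 were read beside them, and none of these 5 passed in either direction. Stat6, the STAT of interleukin-4 signalling and the most abundant of this group, stood at 446 ± 24.3 against 418 ± 36.4 CPM (log2 fold change 0.09, edgeR adjusted p = 0.545). Stat5a and Stat5b, which serve GM-CSF and other cytokines, had log2 fold changes of -0.33 and -0.20 (adjusted p = 0.470 and 0.5001). Irf2, an antagonist of IRF1, had separate ranges of 42.9 to 46.0 and 35.7 to 37.0 CPM, but missed the threshold (log2 fold change 0.29, adjusted p = 0.193). Stat4 stood at 1.76 against 1.89 CPM (adjusted p = 0.954).

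Levels between genes were compared as CPM per kilobase of exon. That length joins all annotated exons of a gene and is not the length of a transcript. For Irf7 its 3776 bases cover the whole span of the gene. The order between genes therefore depends on the annotated lengths as well. In both groups Irf5 was the highest, at 166 ± 7.22 in TpMo-derived and 129.7 ± 5.08 in Ly6Chi-derived macrophages (SD, n = 3 each), and averaged over the groups it stood above 98.1% of the genes tested. Irf7 was the second highest in TpMo-derived macrophages, at 66.6 ± 12.1, above Irf8 at 49.97 ± 1.14. In Ly6Chi-derived macrophages it was the seventh, at 8.87 ± 2.66. There Irf8 followed Irf5, at 38.7 ± 1.84. After these, the TpMo-derived order was Stat2 (22.3), Irf9 (21.5), Irf3 (16.6), Stat3 (15.7) and Irf1 (8.38), where the ranges of Stat2 and Irf9 overlapped, as did those of Irf3 and Stat3. The Ly6Chi-derived order was Stat3 (15.6), Irf3 (13.0), Irf9 (12.6), Stat2 (10.0), Irf7 (8.87) and Irf1 (6.64), in which the ranges of neighbours overlapped except between Irf9 and Stat2. Irf4 was last in both, at 0.109 and 0.0348.

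**Figure D3:**
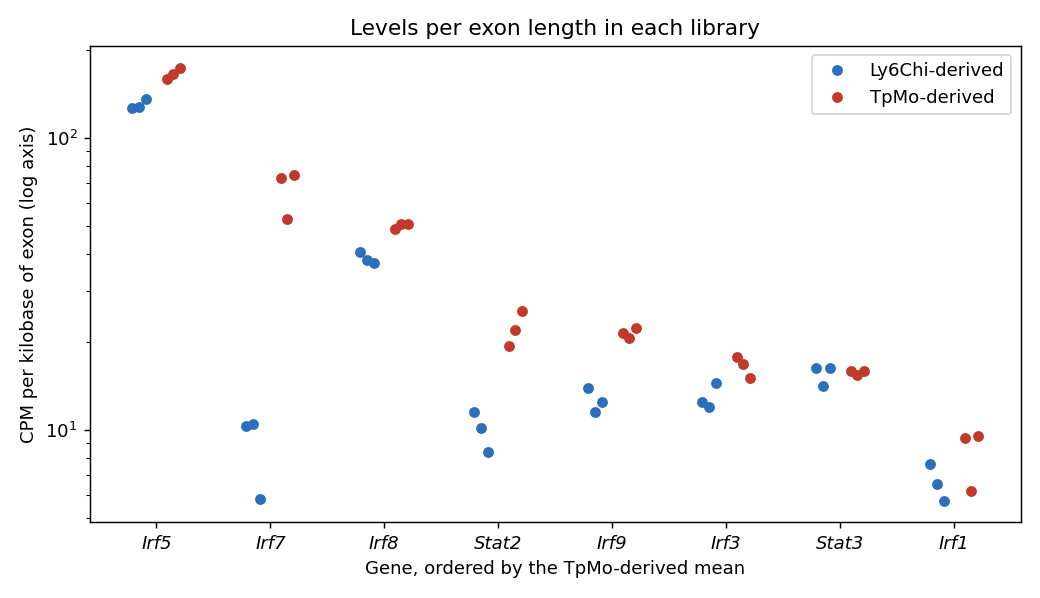
CPM per kilobase of exon (y axis, log scale) in each library for the 8 genes other than Irf4, ordered by the TpMo-derived mean, with Ly6Chi-derived libraries in blue and TpMo-derived libraries in red. Irf7 moves from 8.87 in Ly6Chi-derived to 66.6 in TpMo-derived macrophages, past Irf8, while Stat3 stays at 15.6 and 15.7.

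Ratios between 2 genes within a library do not depend on how libraries are scaled, and 4 were compared. Per exon length, Irf7 was at 4.07, 3.13 and 4.92 times Irf3 in the TpMo-derived libraries and at 0.829, 0.874 and 0.401 times in the Ly6Chi-derived libraries. Irf7 thus stood above Irf3 in every TpMo-derived library and in no Ly6Chi-derived one, a 6.001-fold difference of the ratio. Counts not divided by length fell on the same sides of equality. Stat2 was at 1.22, 1.43 and 1.599 times Stat3 against 0.703, 0.718 and 0.517 times, a 2.20-fold difference that crossed equality only per exon length. Undivided counts of Stat2 were below those of Stat3 in every library, as with 3483 against 3502 in TpMo-derived replicate 3. The fold difference between the groups is the same either way. Irf9 to Irf3 differed less, with 1.20, 1.23 and 1.47 against 1.12, 0.958 and 0.863, or 1.33-fold. Each of these 3 ratios had separate ranges and gave p = 0.1 in a two-sided exact permutation test, the smallest that 3 against 3 libraries allow, or 0.133 adjusted over the 4 ratios, so none could pass. Irf4 was at most at 0.00669 times Irf8 in any library (exact permutation p = 0.9, with Irf4 counts under 3 set to 3).

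**Figure D4:**
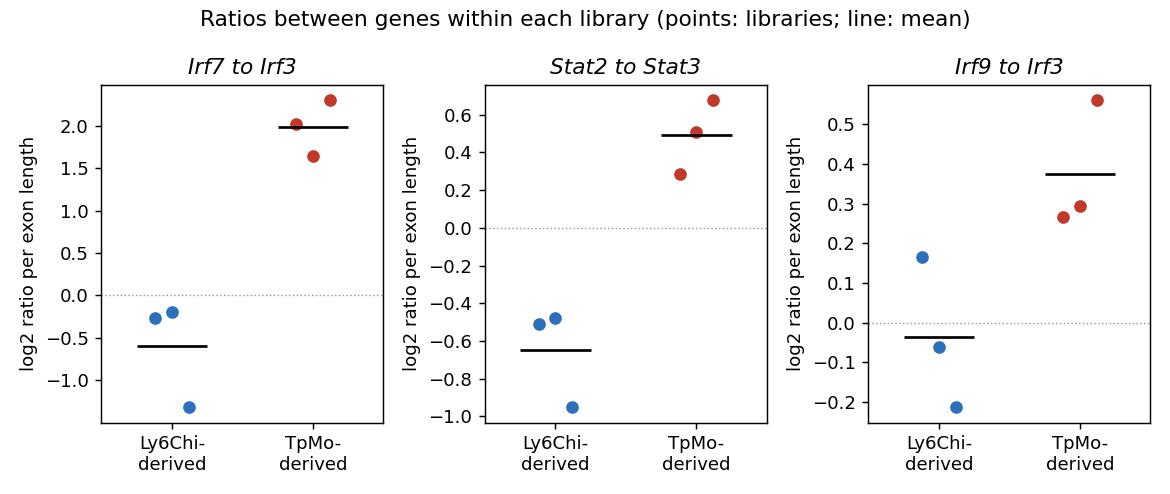
Log2 ratio per exon length (y axis) of Irf7 to Irf3, Stat2 to Stat3 and Irf9 to Irf3 within each library, with Ly6Chi-derived libraries in blue, TpMo-derived libraries in red and the mean as a black line. A value of 0 means equal levels per exon length, and the TpMo-derived points of Irf7 to Irf3 lie at 1.65 to 2.30 against -1.32 to -0.19.

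Upstream of these factors, interferon genes were at or near 0 counts, and 6 of 8 tested receptor chains rose in TpMo-derived macrophages, 4 of them whichever library was left out. Of 20 interferon genes, 19 had 0 counts in all 6 libraries, Ifnb1 and Ifng among them. That allows up to 3 counts per library if counts are independent, and more where both mates of a fragment were counted. Ifnz had 10 counts in 1 TpMo-derived library. Copies of the Ifna genes are so alike that reads mapping to several of them were not counted. Among receptor chains for interferons, interleukin-6 and interleukin-10, 6 of 8 tested rose and 0 fell, beside the 6.54% of all genes that rose, and the median log2 fold change was 0.52. This list and those that follow were also chosen with earlier results of these data known. Ifngr1, the ligand-binding chain for interferon gamma, stood at 346 ± 28.4 against 222 ± 12.3 CPM (edgeR adjusted p = 6.19e-04), Ifnar1 of the type I receptor at 321 ± 13.4 against 247 ± 6.61 CPM, Il6ra at 72.5 ± 8.40 against 44.4 ± 0.366 CPM, and Il6st, the shared chain gp130, at 114 ± 7.09 against 73.0 ± 8.39 CPM. The call of Ifnar2 (log2 fold change 0.43, adjusted p = 0.0441) was lost whichever of the 6 libraries was left out (adjusted p = 0.0656 to 0.153), and that of Il10ra (0.62, adjusted p = 0.0207) in 5 of the 6 cases (up to 0.0875). The 2 chains that did not pass were Il10rb, at 351 against 325 CPM, and Ifngr2, at 202 against 181 CPM. Of the 4 Janus kinases, Jak1 and Tyk2 did not pass, with log2 fold changes of -0.09 and 0.05, and Jak3 rose with 0.64 (adjusted p = 0.0350, but up to 0.138 with 1 library left out, and under 0.05 in 1 of the 6 cases). Of 5 tested ligands that signal through gp130 or the interleukin-10 receptor, 1 rose and 0 fell, the same counts as for the 4 Janus kinases. Both stand beside the 6.54% of all genes tested that were higher and the 5.79% that were lower. The ligand that rose was Ebi3, a subunit of interleukin-27, at 43.3 ± 3.15 against 24.3 ± 2.76 CPM. Il10 stood at 6.20 against 2.38 CPM (adjusted p = 0.163) and passed only without Ly6Chi-derived replicate 2 (adjusted p = 0.0481) and with limma-voom (adjusted p = 0.0454). Clcf1 leaned the other way, at 0.248 against 2.44 CPM (log2 fold change -3.31, edgeR adjusted p = 0.0886), and passed in 2 of 13 alternatives. Osm and Il27 did not pass either (log2 fold changes -0.12 and 0.76, adjusted p = 0.860 and 0.711).

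Of 21 adaptors, sensors and kinases that lead to IRF3, IRF5 and IRF7, 4 rose and 0 fell, beside 6.54% and 5.79% of all genes tested, and the median log2 fold change was 0.01. The RNA sensors Ddx58 and Ifih1 stood at 77.6 ± 10.7 against 29.8 ± 5.63 CPM and at 74.0 ± 16.3 against 36.0 ± 1.25 CPM, and Ikbke, a kinase of IRF3 and IRF7, at 187 ± 28.8 against 87.3 ± 11.7 CPM (edgeR adjusted p = 5.93e-04). The other kinase of these factors, Tbk1, stood at 149 against 149.8 CPM (log2 fold change -0.01, adjusted p = 0.962). Myd88, the Toll-like receptor adaptor, rose with 0.53 (adjusted p = 0.0164), a call kept in 2 of the 6 cases with a library left out. Of 18 tested inhibitors, 3 rose and 1 fell, read against the same shares. The interferon-induced brake Usp18 stood at 69.8 ± 7.85 against 15.9 ± 4.75 CPM and the phosphatase Ptpn6 at 499.9 ± 27.8 against 302 ± 13.2 CPM, whereas the phosphatase Ptpn1 fell to 161 ± 0.872 from 235 ± 6.31 CPM (adjusted p = 6.80e-04). The third that rose, Isg15, had a log2 fold change of 2.65 (adjusted p = 0.0108, or 0.0608 without TpMo-derived replicate 3). Of 15 tested partners and lineage factors, 1 rose and 2 fell, beside 6.54% and 5.79% of all genes tested. Spi1, which encodes the IRF8 partner PU.1, stood at 434 ± 13.9 against 387 ± 31.1 CPM, a difference that missed the threshold (log2 fold change 0.17, adjusted p = 0.183), and Id2, an inhibitor of helix-loop-helix factors, fell to 285 ± 56.2 from 508 ± 42.0 CPM (adjusted p = 0.00183). Prdm1 rose with 1.12 and Nfatc1 fell with -0.43, and these calls were kept in 2 and 0 of the 6 cases with a library left out (adjusted p up to 0.103 and 0.164).

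Genes that commonly respond to these factors were counted by branch, and some stand in more than 1 list. Ddx58, Ifih1, Usp18 and Isg15, counted above, are also among the ISRE-driven genes. The STAT3 and interferon gamma branches also hold genes from lists counted above, Il10 among them. Each count stands beside the 6.54% of all genes tested that were higher and the 5.79% that were lower. The lists were chosen with earlier results of these data known, so the counts describe them and test nothing. Of 29 tested ISRE-driven genes, 27 rose and 0 fell, the median log2 fold change was 1.86, and 25 of the 27 rose whichever library was left out. Cmpk2, a mitochondrial nucleotide kinase, stood at 141 ± 37.2 against 14.7 ± 1.12 CPM, and Rtp4, a chaperone of receptors, at 197 ± 40.3 against 40.3 ± 2.34 CPM. Mx2 and Isg20 did not pass (log2 fold changes 2.54 and 1.51, adjusted p = 0.155 and 0.0803). Of 18 tested genes of the interferon gamma and IRF1 branch, 11 rose and 0 fell, with a median of 0.83, and 6 of the 11 rose whichever library was left out. The immunity-related GTPase Irgm1 stood at 167 ± 16.3 against 65.5 ± 4.26 CPM and the guanylate-binding protein Gbp2 at 30.0 ± 3.63 against 9.35 ± 1.61 CPM. Casp1 and Icam1 did not pass, with log2 fold changes of -0.10 and 0.07. Many genes of this branch also respond to type I interferon. Of 19 tested genes of the STAT3 branch, 4 rose and 1 fell, with a median of 0.15, and 2 of the 4, Junb and Fos, rose whichever library was left out. The calls of Tnfaip3 and Myc were kept in 3 and 2 of the 6 cases (adjusted p up to 0.0575 and 0.130). Junb stood at 268 ± 12.4 against 190 ± 10.6 CPM and Fos at 266 ± 43.2 against 130.3 ± 35.4 CPM, both immediate early genes with many other inducers, and Ccnd1 at 861 against 882 CPM did not pass. The single gene of that branch that fell, the sphingosine kinase Sphk1, did so on 40 counts against 527, and its call was kept in 2 of the 6 cases with a library left out (adjusted p up to 0.0944).

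**Figure D5:**
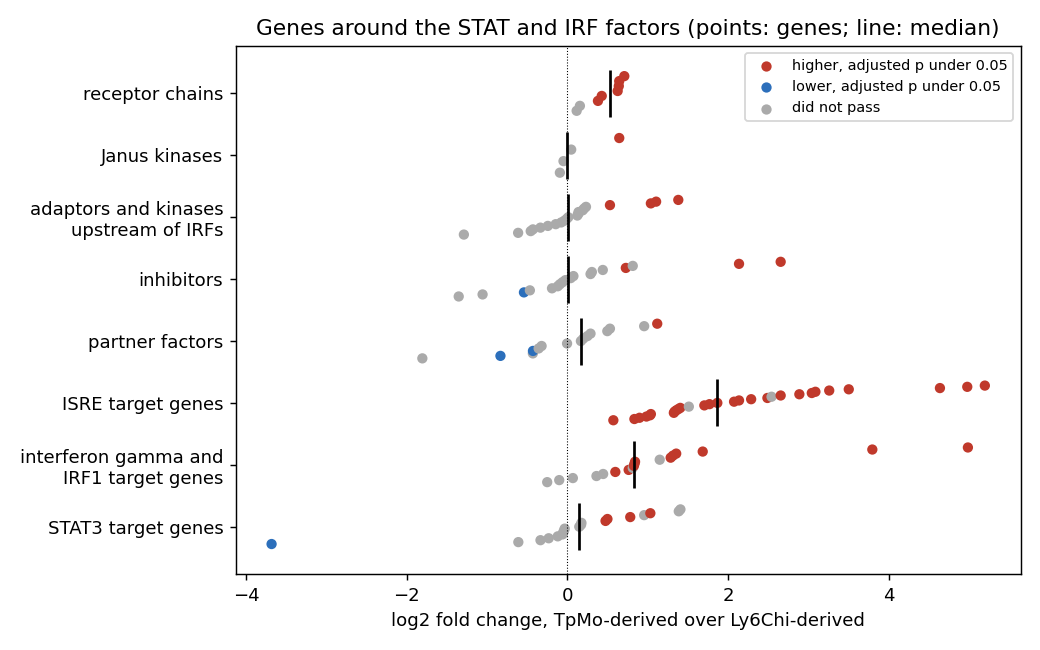
Log2 fold change (x axis, TpMo-derived over Ly6Chi-derived) of each tested gene in 8 lists around the STAT and IRF factors, red where higher and blue where lower at an edgeR adjusted p under 0.05, with the list's median as a black line. The ISRE target genes all lie to the right of 0 with a median of 1.86, whereas the medians of the Janus kinases, adaptors and inhibitors lie near 0.

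For each of the 5 genes that rose, genes with a most similar profile were sought by the root mean square distance of log2 CPM, centred per gene, over the 6 libraries. Nearest to Irf7 were Ifit2, an interferon-induced RNA-binding protein (distance 0.26), the class I gene H2-T24 (0.26) and Rsad2, which encodes the antiviral enzyme viperin (0.30). Nearest to Stat2 were the Toll-like receptor Tlr1 (0.09), the ISG15-conjugating enzyme Ube2l6 (0.10) and H2-T23 (0.10). Nearest to Irf9 were Arhgap19 (0.05), the class I gene H2-K1 (0.06) and Hmgn1 (0.07). Those of Irf5 were Fermt3, Lrrc59 and Ran, with distances of 0.03 to 0.04, and Plekho2 and Snx5 were among those of Irf8, with 0.02 and 0.03. Distances are smaller for genes that differ little, so they do not rank the genes against each other, and the H2 genes have near-identical copies, so that their reads can be split or lost.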

How the data were processed

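The authors deposited 1 table of raw read counts per gene for 6 libraries, prepared with SMART-seq v2 and Nextera XT per the labels' protocols. Per the file headers, featureCounts 1.6.3 counted reads over GENCODE M22 exons with default settings, so mates were counted separately, strand was ignored, and reads on several places or genes were left out. STAR and GRCm38 come from the submitters' processing notes. The deposited exon length column gave levels per kilobase. Symbols came from GENCODE M21, which matched 55394 of 55487 gene identifiers.

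Libraries were compared with edgeR 4.0.16 in R 4.3.3 (filterByExpr at its defaults, 10 counts per library and 15 in total, TMM scaling, robust quasi-likelihood test, no covariate). CPM values use TMM-scaled totals of the genes tested. SE is the fold change over the root of its F statistic. Ratios used an exact permutation test. Alternatives used DESeq2 1.42.0, limma 3.58.1, other scalings and filters, and each library left out in turn. The fit was tested on simulated data. The 9 genes and the gene lists were chosen with earlier results of these data known. All 9 are named. Some other genes that these rules would name are not reported here. Per list, up to 4 called genes with the smallest p and up to 2 others with the highest mean CPM could be named, and likeness was sought among genes with at least 5 CPM. Ifnar2, Il10ra, Ifnb1, Ifng, Ifnz, Clcf1 and Il27 were named after their values were seen.

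Replicates carry numbers in accession order. No source used here says whether they are separate cultures or animals, and the p-values therefore cover the spread among the 6 libraries alone, possibly a technical one. Floors cover counting error only, because PCR copies cannot be told from molecules. They also take counts as independent, and are too low where both mates of a fragment were counted. Pairs of libraries within a group gave a chi-square per degree of freedom of 22.1 to 36.5, with counts taken as independent. Mates counted separately and PCR copies also raise that value, so it cannot show how far the libraries differ beyond sampling noise.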

Additional observations from a re-analysis of the deposited data

How the results depend on the processing

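The calls of Stat2, Irf5, Irf7, Irf8 and Irf9 held under all 14 alternatives (DESeq2, limma-voom, 3 other scalings, 2 other filters, no robust dispersion and 6 fits without a library), and these 5 were the STAT and IRF genes called in each. The highest adjusted p was 0.0347 for Irf5 and 0.0317 for Irf8, both in fits without a library, and the log2 fold change of Irf7 ranged from 2.67 to 3.05. Irf3 and Irf1 passed in none (lowest adjusted p 0.0569 with DESeq2 for Irf3 and 0.112 for Irf1). Stat3, near 0, changed sign to -0.035 with library sizes alone, and ranged from -0.061 without Ly6Chi-derived replicate 2 to 0.042 without Ly6Chi-derived replicate 3. Irf4 had no value to compare, since the count filter removed it, and in the 6 alternatives that kept it the lowest adjusted p was 0.589. The difference of the log2 ratio of Irf4 to Irf8 turned from 0.42 to -0.84 without TpMo-derived replicate 1, which holds 52 of the 66 Irf4 counts, and rose to 1.14 without Ly6Chi-derived replicate 2. The number of all genes called, 1620, ranged from 976 to 1492 with a library left out, and the share of genes called ranged from 7.06% without Ly6Chi-derived replicate 2 to 19.5% with a filter of 5 CPM. With library sizes alone the split of all calls moved from 859 higher and 761 lower to 737 and 902. No paired analysis was possible because the labels give no replicate number, animal or batch that joins libraries of the 2 groups. Depth limits Irf4 among the 9 genes, and the interferon genes.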

Other observations

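The genes flanking each STAT and IRF gene were chosen for a look after the data had been seen. On either side, the nearest tested gene that does not overlap was taken. Around Irf7, Rassf7 stood at 9.90 against 10.7 CPM and Deaf1 at 37.99 against 29.8 CPM in TpMo-derived and Ly6Chi-derived macrophages, and neither passed (edgeR adjusted p = 0.858 and 0.217). Around Stat2, Timeless and Pan2 did not pass (log2 fold changes 0.53 and -0.62, adjusted p = 0.0614 and 0.308). Irf9 was the exception among the 5 genes that rose, with Psme2, a subunit of the proteasome activator PA28, at 82.3 ± 10.4 against 55.3 ± 9.31 CPM (adjusted p = 0.0320) and the importin Ipo4 at 50.7 ± 11.9 against 32.3 ± 2.58 CPM (adjusted p = 0.0452). The call of Psme2 was lost without every library but TpMo-derived replicate 2 (adjusted p up to 0.135), and that of Ipo4 likewise (up to 0.172).

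Cebpb, which encodes a macrophage transcription factor that is usually abundant, had only 22 counts over all 6 libraries. Of its exon bases, 20.7% are shared with Tmem189, where reads were not counted, and the other bases are its own. Isg15 stood at 7.70 against 1.22 CPM and Usp18, which acts on the same protein, at 69.8 against 15.9 CPM. No exon base of Isg15 is shared with another gene. Shared bases do not cover reads that map to several places, which were also left out, and that loss was not tested. These values were singled out after they were seen, and their cause was not tested.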
